A study of Mus musculus with 12 samples.

Results

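The 10 genes described here, Txnip, Foxo1, Foxo3, Foxo4, Btg1, Btg2, Tob1, Nr4a1, Nr4a2 and Klf2, encode proteins that hold blood stem cells out of the cell cycle or limit their growth. They were chosen by name, as known quiescence regulators, and are 10 of the 48795 genes in the count table. All 10 passed the filter on low counts, and the group comparisons cover 14756 genes. RNA was sequenced from leukemic long-term hematopoietic stem cells (LTHSC), which can renew all blood lineages for life. They were sorted from the marrow of C57BL/6 mice at the tumor stage CML (chronic myeloid leukemia). The No_Cre group came from mice without Cre, the Tek_Cre group from mice with Tek-Cre, which is active in endothelial and also in blood-forming cells, and the Prx1_Cre group from mice with Prx1-Cre, which is active in limb mesenchyme and the marrow stroma derived from it. Each group had 4 libraries. All groups share the CML stage, the strain and the tissue, and the mice are named recipient in one label and primary in another. The leukemia model, the genotype at Cxcl12, the age of the mice and whether a library pools several mice are not given in the sources used here, although the series title names Cxcl12 of the mesenchymal niche and the quiescence of leukemia stem cells.

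Quiescent stem cells keep growth signals low. FOXO transcription factors enter the nucleus when PI3K and AKT signalling is weak and switch on genes for cell cycle arrest and stress resistance, and loss of FOXO proteins in mice drives stem cells into cycle and exhausts them. BTG and TOB proteins recruit the CCR4-NOT deadenylase to shorten messenger RNA tails, NR4A nuclear receptors restrain stem cell proliferation, KLF2 keeps lymphocytes at rest, and TXNIP blocks thioredoxin and glucose uptake. BTG2 and NR4A genes also respond within minutes to signals and to cell handling, as immediate early genes do.

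Promoter letters are shown for 5 of these genes because the changes below turn on them and because they include paralogs that moved apart. RefSeq holds a promoter for 9 of the 10 genes on GRCm38.p6, and Foxo4 has no entry. The 250 bases before the RefSeq start, which can differ from the GENCODE start used for gene positions below, are printed 5′ to 3′ on the strand of the gene. Capitals mark matches on either strand to the CRE half-site TGACG (read as CGTCA on the other strand), the FOXO site TGTTTAC, the E-box CACGTG, the CArG box and the MEF2 site.
Txnip (chr3:96557707-96557956, + strand): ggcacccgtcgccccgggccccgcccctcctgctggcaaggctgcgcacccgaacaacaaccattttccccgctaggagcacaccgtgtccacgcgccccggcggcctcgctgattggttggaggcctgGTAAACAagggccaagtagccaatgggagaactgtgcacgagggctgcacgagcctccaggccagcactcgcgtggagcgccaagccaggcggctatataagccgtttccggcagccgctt
Btg2 (chr1:134079156-134079405, - strand): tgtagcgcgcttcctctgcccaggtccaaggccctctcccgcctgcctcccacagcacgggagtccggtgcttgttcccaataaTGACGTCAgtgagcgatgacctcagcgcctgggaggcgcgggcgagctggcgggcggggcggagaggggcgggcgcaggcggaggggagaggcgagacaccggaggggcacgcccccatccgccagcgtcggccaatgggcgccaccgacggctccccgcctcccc
Klf2 (chr8:72318812-72319061, + strand): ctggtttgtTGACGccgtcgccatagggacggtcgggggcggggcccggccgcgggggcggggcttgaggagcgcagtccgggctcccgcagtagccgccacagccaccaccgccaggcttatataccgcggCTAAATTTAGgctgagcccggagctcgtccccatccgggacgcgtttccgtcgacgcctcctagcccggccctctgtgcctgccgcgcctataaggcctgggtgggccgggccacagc
Nr4a1 (chr15:101266596-101266845, + strand): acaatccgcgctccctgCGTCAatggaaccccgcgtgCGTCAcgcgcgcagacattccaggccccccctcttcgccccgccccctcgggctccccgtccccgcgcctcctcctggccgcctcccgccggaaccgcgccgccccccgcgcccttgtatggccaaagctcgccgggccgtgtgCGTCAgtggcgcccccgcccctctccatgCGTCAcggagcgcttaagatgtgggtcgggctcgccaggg
Nr4a2 (chr2:57124004-57124253, - strand): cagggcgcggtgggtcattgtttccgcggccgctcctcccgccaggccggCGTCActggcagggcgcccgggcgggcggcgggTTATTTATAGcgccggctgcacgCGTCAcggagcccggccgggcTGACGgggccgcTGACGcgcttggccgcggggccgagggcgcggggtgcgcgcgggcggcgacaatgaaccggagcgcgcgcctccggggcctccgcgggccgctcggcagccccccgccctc

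Both NR4A promoters held 4 CRE half-sites. In Nr4a1 all 4 lay on the strand opposite to the gene, the nearest 40 to 36 bases before the start, and in Nr4a2 there were 2 on each strand, from 200 to 107 bases before the start. Btg2 had a pair that overlap into a palindrome 166 to 159 bases before the start, and Klf2 had 1. The half-site was present in 7 of the 9 promoters and in 17.8% of all 32851 promoters of the same length. Txnip had a FOXO site 121 to 115 bases before its start, as did Btg1 204 to 198 bases before, against 3.17% of all promoters. A MEF2 site was found in Nr4a2 and Klf2 and in 2.92% of all promoters. The E-box (6.02% of all promoters) and the CArG box (1.47%) had no match in these 9 windows. A match describes the letters and is not a measured binding site.

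Total counts per library ran from 15715603 to 28860324, and the 10 genes together took 0.229 to 0.239% of counts in No_Cre, 0.153 to 0.157% in Tek_Cre, with 0.123 to 0.130% in Prx1_Cre. Levels are given in CPM (counts scaled to library size by trimmed mean of M-values factors). Libraries of a group were close, with a common biological coefficient of variation of 3.46% in No_Cre, 5.23% in Tek_Cre, with 6.85% in Prx1_Cre. The design text of the series calls the 4 libraries of a group biological replicates, and the labels do not tie a library to a mouse, so p-values measure the spread between these libraries. Of the markers of the labelled cells, Kit stood at 856 ± 14.3, 976 ± 17.6 and 594 ± 16.4 CPM (SD, n = 4) in No_Cre, Tek_Cre and Prx1_Cre, and Slamf1 at 51.4 ± 0.830, 61.6 ± 2.90 and 31.0 ± 1.41 CPM. All 14 LTHSC markers had counts in every group, and their summed level was 2791 to 2843 CPM in No_Cre, 3282 to 3327 in Tek_Cre, with 1662 to 1688 in Prx1_Cre. Immunoglobulin genes took 7.31 to 7.71% of counts in No_Cre, 25.2 to 26.0% in Tek_Cre, with 0.296 to 0.310% in Prx1_Cre. In bulk RNA, fewer cells of a type and less RNA per cell cannot be told apart.

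Most of the 10 regulators were lower in Prx1_Cre than in No_Cre, and the FOXO and NR4A paralogs changed most in different groups. In Prx1_Cre against No_Cre 9 of 10 fell and 0 rose, and the libraries of the groups did not overlap for 8. A gene was called at an adjusted p under 0.05 in edgeR's quasi-likelihood test. Over all genes tested 75.6% were called in this comparison (36.7% higher, 39.0% lower) and 68.6% had no overlap (33.2% higher, 35.4% lower), so a call as such was common. The median log2 fold change was -0.90 over the 10 genes and -0.02 over all genes tested, and 4 of the 10 genes changed more than 2-fold against 22.2% of all. In Tek_Cre against No_Cre 4 fell, 2 rose and 4 were not called, where 52.9% of all genes were called (26.5% lower, 26.4% higher). The libraries did not overlap for 6 of the 10 (48.7% of all genes, 24.3% higher and 24.4% lower), and the median was -0.12 against 0.00 over all genes. In Prx1_Cre against Tek_Cre 7 fell, 2 rose and 1 was not called, where 77.6% of all genes were called (39.8% lower, 37.8% higher). Here 9 did not overlap (69.3% of all genes, 33.5% higher and 35.9% lower), and the median was -0.45 against -0.01. The comparisons share groups and are not independent of each other.

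**Figure D1:**
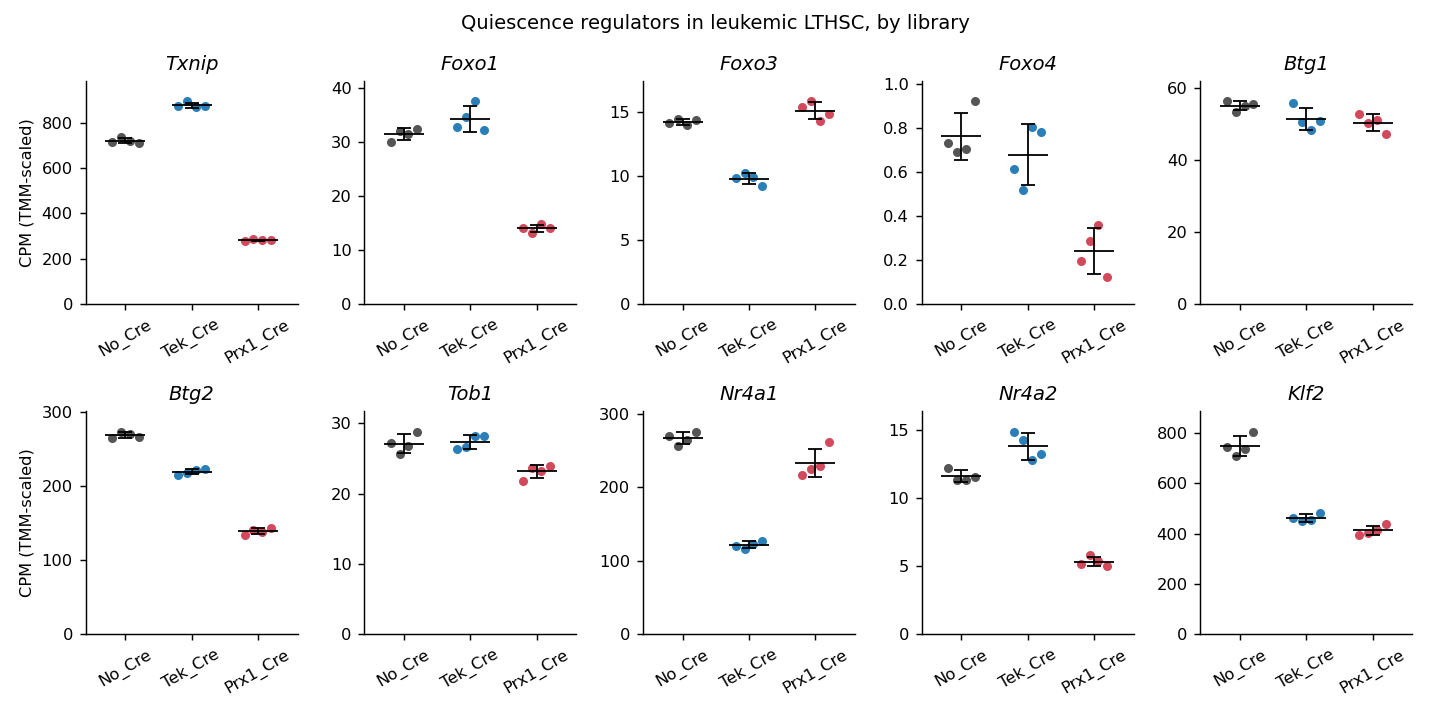
Level of each of the 10 genes in CPM (vertical axes, linear and starting at 0) in the 4 libraries of No_Cre, Tek_Cre and Prx1_Cre, 1 point per library, with the group mean (wide bar) and SD (whiskers). Txnip, Foxo1, Foxo4 and Nr4a2 were lowest in Prx1_Cre, and Foxo3 and Nr4a1 were lowest in Tek_Cre. Btg2 and Klf2 were lower in both Cre groups and lowest in Prx1_Cre, while Btg1 and Tob1 moved least.

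Txnip, an arrestin-like protein that inhibits thioredoxin and glucose uptake, was lowest in Prx1_Cre and highest in Tek_Cre. It lies on chromosome 3 (96557957 to 96561883, GRCm38, ENSMUSG00000038393.14). Its level was 715, 736, 718 and 711 CPM in No_Cre replicates 1 to 4, 874, 894, 868 and 873 CPM in Tek_Cre, and 279, 286, 282 and 283 CPM in Prx1_Cre. The 3 groups did not overlap, with Prx1_Cre far below the other two and Tek_Cre highest. Txnip fell 2.55-fold in Prx1_Cre against No_Cre (log2 fold change -1.35 ± 0.03 SE, edgeR adjusted p = 9.34e-21) and 3.11-fold against Tek_Cre (-1.64 ± 0.03, adjusted p = 1.07e-22). In Tek_Cre against No_Cre it rose 1.22-fold (0.29 ± 0.03, adjusted p = 1.04e-07). The antisense gene Gm15441 shares 606 exon bases with Txnip, and the strand setting of the counting is not stated. Gm15441 had 205, 96 and 78 counts in No_Cre, Tek_Cre and Prx1_Cre, at most 0.296% of those of Txnip.

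Arrdc4, a close relative of Txnip that is switched on by the same glucose-sensing factors, was next to it in direction. It stood at 76.6 ± 4.12 CPM in No_Cre, 99.6 ± 4.16 in Tek_Cre, with 27.1 ± 0.652 in Prx1_Cre (SD, n = 4). Arrdc4 fell 2.83-fold in Prx1_Cre against No_Cre (-1.50 ± 0.05, edgeR adjusted p = 5.96e-18) and rose 1.30-fold in Tek_Cre (0.38 ± 0.05, adjusted p = 4.78e-07). The glucose transporter Slc2a1 fell in Prx1_Cre (-0.60 ± 0.06) and rose in Tek_Cre (0.20 ± 0.06). Mlxip, which encodes the glucose sensor MondoA, fell in both (-0.37 ± 0.04 and -0.19 ± 0.04). Mlx, of the same list, rose in Prx1_Cre (0.79 ± 0.05) and was not called in Tek_Cre (-0.04 ± 0.05). Of the mitochondrial side, the thioredoxin reductase Txnrd2 rose 1.87-fold in Prx1_Cre, at 92.5 ± 4.61 against 49.5 ± 2.22 CPM. Among the 19 tested genes of this list other than Txnip, 7 rose and 9 fell in Prx1_Cre against No_Cre with a median of -0.13, and 5 rose and 4 fell in Tek_Cre with a median of -0.0047. In Tek_Cre the largest were the growth inhibitor Ddit4 (1.35-fold higher) and the arrestin Arrdc3 (1.31-fold higher), besides Arrdc4.

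The FOXO paralogs separated by group. Foxo1 (chromosome 3, 52268336 to 52353221, ENSMUSG00000044167.6) stood at 30.1, 32.1, 31.5 and 32.5 CPM in No_Cre, 32.8, 34.7, 37.6 and 32.4 CPM in Tek_Cre, and 14.1, 13.2, 14.9 and 14.1 CPM in Prx1_Cre. The Prx1_Cre libraries were all below the others, and the No_Cre and Tek_Cre ranges overlapped. Foxo1 fell 2.24-fold in Prx1_Cre against No_Cre (-1.16 ± 0.07, edgeR adjusted p = 9.29e-14) and 2.44-fold against Tek_Cre (-1.29 ± 0.07, adjusted p = 1.26e-14), with 0.12 ± 0.06 in Tek_Cre against No_Cre (adjusted p = 0.107).

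Foxo3, the FOXO gene most tied to stem cell maintenance in mice, was lower in the other Cre group. It lies on chromosome 10 (42181841 to 42276755, ENSMUSG00000048756.11) and stood at 14.1, 14.5, 14.0 and 14.4 CPM in No_Cre, 9.85, 10.2, 9.91 and 9.20 CPM in Tek_Cre, and 15.4, 15.8, 14.3 and 14.9 CPM in Prx1_Cre. All Tek_Cre libraries were below the rest, and Prx1_Cre overlapped No_Cre. Foxo3 fell 1.46-fold in Tek_Cre against No_Cre (-0.55 ± 0.08, edgeR adjusted p = 2.28e-06) and its Prx1_Cre level exceeded that of Tek_Cre 1.55-fold (0.63 ± 0.08, adjusted p = 5.92e-08). In Prx1_Cre against No_Cre its change was 0.08 ± 0.07 (adjusted p = 0.283), and it was -0.01 with upper-quartile factors.

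Foxo4 (chromosome X, 101254528 to 101260873, ENSMUSG00000042903.8) was near the limit of detection. It had 73 counts over the No_Cre libraries, 55 in Tek_Cre and 26 in Prx1_Cre. Per library that was 0.691 to 0.922 CPM in No_Cre, 0.517 to 0.804 CPM in Tek_Cre, with 0.125 to 0.359 CPM in Prx1_Cre. Every Prx1_Cre library was below every other, and the other two groups overlapped. Foxo4 fell 3.08-fold in Prx1_Cre against No_Cre (-1.62 ± 0.32, edgeR adjusted p = 6.92e-05), with the widest error of the 10, and its change in Tek_Cre was -0.14 ± 0.28 (adjusted p = 0.708). Foxo6, the remaining family member, did not pass the filter, with 22, 0 and 8 counts in No_Cre, Tek_Cre and Prx1_Cre.

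Per kilobase of exon, which allows levels of different genes to be set side by side, Foxo1 was above Foxo3 in No_Cre and Tek_Cre and below it in Prx1_Cre. The ratio of Foxo1 to Foxo3 was 1.94 ± 0.0509 in No_Cre, 3.07 ± 0.177 in Tek_Cre, with 0.816 ± 0.0747 in Prx1_Cre (SD, n = 4). Single libraries ran from 1.86 to 1.98, from 2.91 to 3.32 and from 0.728 to 0.909, with no overlap. The length was that of all annotated exons of a gene, and the order in Prx1_Cre depends on it. In CPM without this length, Prx1_Cre replicate 3 had Foxo1 (14.9) above Foxo3 (14.3).

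**Figure D2:**
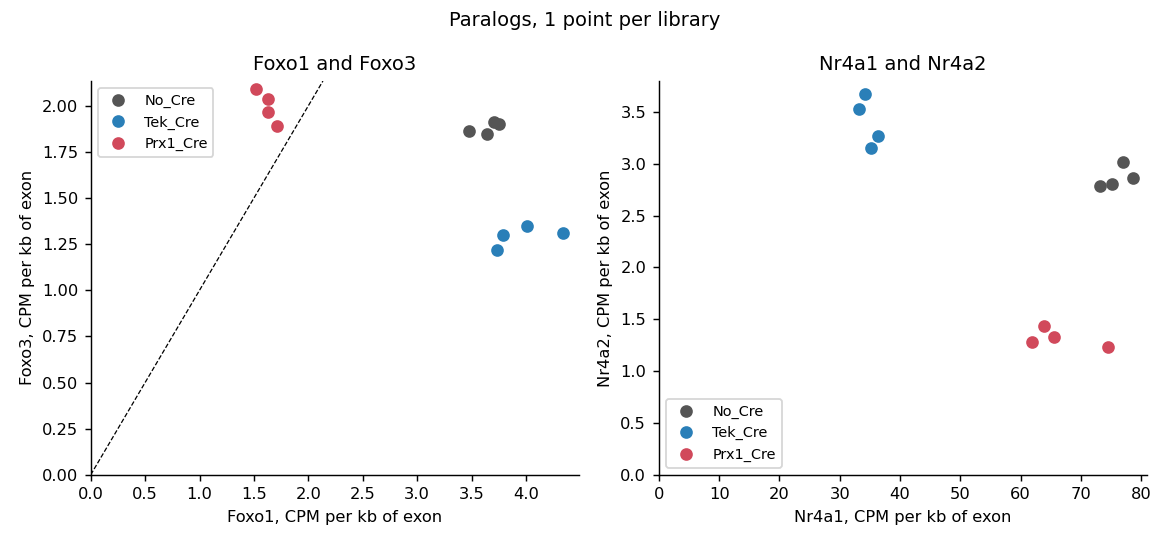
Foxo3 against Foxo1 (left, dashed line at equal levels) and Nr4a2 against Nr4a1 (right) in CPM per kilobase of exon, both axes linear from 0, 1 point per library coloured by group. Prx1_Cre libraries lie above the dashed line at a Foxo1 to Foxo3 ratio of 0.728 to 0.909, the other libraries below it, and the NR4A paralogs place Tek_Cre low on Nr4a1 and Prx1_Cre low on Nr4a2.

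Genes known as FOXO targets were more often lower than higher in Prx1_Cre. Of 32 listed and tested, 21 fell, 8 rose and 3 were not called in Prx1_Cre against No_Cre, with a median of -0.49 against -0.02 over all genes. In Tek_Cre against No_Cre 15 rose, 6 fell and 11 were not called, with a median of 0.04. In Prx1_Cre the S1P receptor S1pr1, which guides cell exit from tissues, fell 2.64-fold to 11.5 ± 0.961 CPM, and the ubiquitin ligase subunit Fbxo32 fell 2.51-fold to 7.68 ± 0.964 CPM. Pik3ip1, an inhibitor of PI3K, fell from 219 ± 5.57 to 92.6 ± 3.36 CPM (-1.24 ± 0.04). The cell cycle inhibitors were split, as Cdkn1b (p27) fell from 5.17 ± 0.248 to 2.62 ± 0.328 CPM while Cdkn1a (p21) rose from 20.6 ± 1.89 to 37.5 ± 1.51 CPM. In Tek_Cre the largest changes among listed genes that averaged 5 CPM or more were the rises of the repressor Bcl6 (1.98-fold), the stress gene Gadd45b (1.65-fold) and the death ligand Tnfsf10 (1.62-fold), and Cdkn1b fell there too (-0.90 ± 0.14). Sesn1 and Sesn3, which encode stress-induced growth inhibitors, fell in Prx1_Cre (-0.48 ± 0.04 and -0.62 ± 0.12) and rose in Tek_Cre (0.26 ± 0.04 and 0.43 ± 0.11). Sesn2, of the same family and list, rose in Prx1_Cre (0.60 ± 0.06) and in Tek_Cre (0.21 ± 0.06).

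Upstream genes of FOXO moved less as a list. Of 20 tested, 9 rose and 5 fell in Prx1_Cre against No_Cre (median 0.03) and 5 rose and 6 fell in Tek_Cre (median -0.03). The PI3K catalytic subunit Pik3cb rose 2.18-fold in Prx1_Cre, from 25.6 ± 1.89 to 55.7 ± 3.54 CPM. Skp2, the ubiquitin ligase subunit that marks p27 for degradation, rose 1.88-fold in Prx1_Cre to 29.2 ± 0.886 CPM and fell 1.30-fold in Tek_Cre to 12.1 ± 0.877 CPM. Prkaa1, a catalytic subunit of AMPK, rose 1.75-fold in Prx1_Cre, and the PI3K regulatory subunit Pik3r1 fell 1.34-fold in Tek_Cre.

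**Figure D3:**
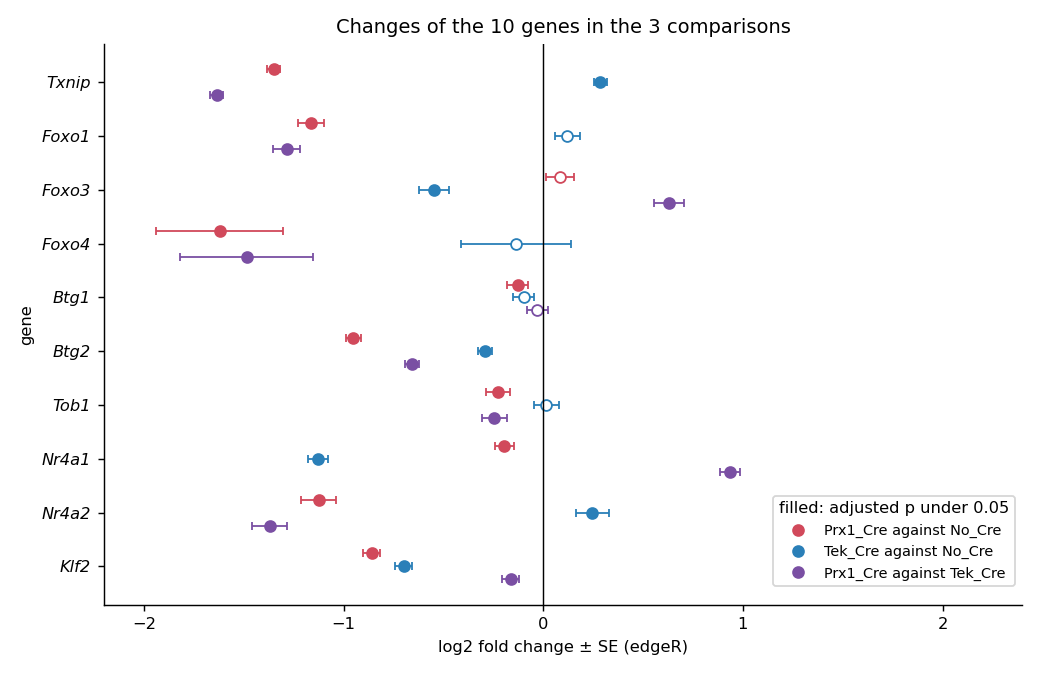
Log2 fold change with SE of the 10 genes (rows) in the 3 comparisons (colours), with filled points where the adjusted p was under 0.05. Txnip, Foxo1 and Nr4a2 lie left of -1 in Prx1_Cre against No_Cre and right of 0 in Tek_Cre against No_Cre, while Nr4a1 lies at -1.13 in Tek_Cre and at -0.19 in Prx1_Cre.

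Among the BTG and TOB genes, Btg2 changed and Btg1 and Tob1 stayed close to their No_Cre levels. Btg2, an antiproliferative gene induced by p53 and by mitogens, lies on chromosome 1 (134075170 to 134079120, ENSMUSG00000020423.6). Its level was 266, 274, 270 and 266 CPM in No_Cre, 216, 218, 222 and 223 CPM in Tek_Cre, and 134, 141, 138 and 144 CPM in Prx1_Cre. The groups formed 3 steps without overlap, No_Cre highest and Prx1_Cre lowest. Btg2 fell 1.93-fold in Prx1_Cre against No_Cre (-0.95 ± 0.04, edgeR adjusted p = 4.13e-17), 1.23-fold in Tek_Cre against No_Cre (-0.29 ± 0.04, adjusted p = 2.43e-07) and 1.58-fold in Prx1_Cre against Tek_Cre (-0.66 ± 0.04, adjusted p = 3.81e-14).

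Btg1 (chromosome 10, 96617006 to 96622809, ENSMUSG00000036478.7), its nearest paralog, ran from 53.3 to 56.3 CPM in No_Cre, from 48.4 to 55.8 CPM in Tek_Cre, with from 47.2 to 52.8 CPM in Prx1_Cre. The Prx1_Cre libraries were just below those of No_Cre, and Tek_Cre overlapped both. Its fall of 0.13 ± 0.05 in Prx1_Cre against No_Cre passed the threshold (edgeR adjusted p = 0.0293), but did not pass without No_Cre replicate 1 (adjusted p = 0.0661), No_Cre replicate 4 (0.0529), Prx1_Cre replicate 2 (0.0529) or Prx1_Cre replicate 4 (0.0733), nor without the filter on low counts (0.103), over an adjusted p of 0.000541 to 0.103 in its 20 alternatives. Against No_Cre, Tek_Cre had -0.10 ± 0.05 (adjusted p = 0.122), which became -0.15 (adjusted p = 0.0285) without Tek_Cre replicate 1. The annotated copies Btg1-ps1 and Btg1-ps2 had 0 counts in all groups.

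Tob1 (chromosome 11, 94211454 to 94215495, ENSMUSG00000037573.5), which like the BTG proteins binds the deadenylase, ran from 25.7 to 28.8 CPM in No_Cre, from 26.4 to 28.2 CPM in Tek_Cre, with from 21.8 to 23.9 CPM in Prx1_Cre. Prx1_Cre was below the other two groups, which overlapped. It fell 1.17-fold in Prx1_Cre against No_Cre (-0.23 ± 0.06, edgeR adjusted p = 0.00151) and again against Tek_Cre (-0.24 ± 0.06, adjusted p = 0.000903), and its change in Tek_Cre against No_Cre was 0.02 ± 0.06 (adjusted p = 0.846). Tob2, its paralog, followed the steps of Btg2, at 118 ± 5.27, 90.7 ± 0.576 and 60.2 ± 2.38 CPM in No_Cre, Tek_Cre and Prx1_Cre.

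The other 20 tested genes of the BTG, TOB and CCR4-NOT list were divided, with 8 that rose and 8 that fell in Prx1_Cre against No_Cre (median 0.08), and 3 that rose and 5 that fell in Tek_Cre (median -0.02). Those with the largest changes were RNA-binding proteins that deliver messages to the deadenylase. Zfp36 fell from 1918 ± 77.6 CPM in No_Cre to 892 ± 15.3 in Prx1_Cre and 1432 ± 39.8 in Tek_Cre, and Zfp36l2 fell 2.06-fold in Prx1_Cre. In Tek_Cre Pan3, of the same list, rose 1.24-fold. The catalytic subunits of CCR4-NOT did not share a direction, as Cnot7 rose (0.28 ± 0.09) and Cnot8 fell (-0.12 ± 0.04) in Prx1_Cre against No_Cre. Of the other Cnot genes, Cnot1 (0.54 ± 0.04), Cnot3, Cnot6, Cnot9 (0.65 ± 0.04), Cnot10 and Cnot11 rose there. Cnot4 and Cnot6l (-0.56 ± 0.09) fell, and Cnot2 was not called.

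The NR4A receptors, orphan nuclear receptors of the immediate early class, differed in the Cre group where they fell most. Nr4a1 (chromosome 15, 101254269 to 101274795, ENSMUSG00000023034.6) stood at 270, 257, 264 and 276 CPM in No_Cre, 120, 117, 123 and 128 CPM in Tek_Cre, and 217, 224, 230 and 262 CPM in Prx1_Cre. All Tek_Cre libraries were below the rest, and Prx1_Cre replicate 4 overlapped No_Cre. Nr4a1 fell 2.19-fold in Tek_Cre against No_Cre (-1.13 ± 0.05, edgeR adjusted p = 2.65e-15) and 1.14-fold in Prx1_Cre against No_Cre (-0.19 ± 0.05, adjusted p = 0.000814), and the Prx1_Cre level exceeded that of Tek_Cre 1.91-fold (0.93 ± 0.05, adjusted p = 2.34e-14).

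Nr4a2 (chromosome 2, 57106830 to 57124003, ENSMUSG00000026826.13) stood at 12.2, 11.3, 11.4 and 11.6 CPM in No_Cre, 14.9, 14.3, 12.8 and 13.2 CPM in Tek_Cre, with 5.19, 5.81, 5.39 and 4.999 CPM in Prx1_Cre. The groups did not overlap, with Prx1_Cre lowest and Tek_Cre highest. Nr4a2 fell 2.18-fold in Prx1_Cre against No_Cre (-1.12 ± 0.09, edgeR adjusted p = 4.60e-11) and 2.58-fold against Tek_Cre (-1.37 ± 0.09, adjusted p = 1.03e-12). Its rise of 0.25 ± 0.08 in Tek_Cre against No_Cre (adjusted p = 0.0142) did not pass without Tek_Cre replicate 1 (0.20, adjusted p = 0.0707) or without the filter on low counts (0.22, adjusted p = 0.0624), over an adjusted p of 0.0112 to 0.0707 in its 20 alternatives. Per kilobase of exon, Nr4a1 exceeded Nr4a2 26.5 ± 0.843-fold in No_Cre, 10.2 ± 1.03-fold in Tek_Cre, with 50.7 ± 6.83-fold in Prx1_Cre (SD, n = 4), with no overlap between groups.

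Nr4a3, the third receptor, was rare, with 65 counts over the No_Cre libraries, 4 in Tek_Cre and 35 in Prx1_Cre. The 4 counts all came from 1 Tek_Cre library. It fell in Tek_Cre against No_Cre (-3.62 ± 0.61, edgeR adjusted p = 2.60e-05) and in Prx1_Cre against No_Cre (-1.02 ± 0.38, adjusted p = 0.0183), the direction of Nr4a1 in both. Of the 16 tested genes of the list other than the pair above, 11 fell and 3 rose in Prx1_Cre (median -0.28), and 6 fell and 3 rose in Tek_Cre (median -0.01). Rxra, the retinoid receptor that pairs with NR4A proteins, fell 1.97-fold in Prx1_Cre to 9.92 ± 0.740 CPM, and the coactivator Crebbp fell 2.07-fold to 25.7 ± 1.52 CPM. In Tek_Cre the cyclic AMP-response factor Crem rose 2.13-fold to 7.38 ± 0.697 CPM, and the CREB coactivator Crtc3 fell 1.55-fold to 24.5 ± 0.484 CPM. Both moved the same way in Prx1_Cre against No_Cre, Crem 1.52-fold higher and Crtc3 1.78-fold lower.

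Klf2, a zinc finger factor that keeps lymphocytes at rest and sustains their exit receptors, was lower in both Cre groups. It lies on chromosome 8 (72319033 to 72321656, ENSMUSG00000055148.7). Its level was 746, 709, 735 and 806 CPM in No_Cre, 461, 450, 453 and 483 CPM in Tek_Cre, and 396, 403, 415 and 438 CPM in Prx1_Cre. The 3 groups did not overlap, and the gap between the Cre groups was small beside that to No_Cre. Klf2 fell 1.81-fold in Prx1_Cre against No_Cre (-0.86 ± 0.04, edgeR adjusted p = 9.27e-15), 1.62-fold in Tek_Cre against No_Cre (-0.70 ± 0.04, adjusted p = 1.86e-12) and 1.12-fold in Prx1_Cre against Tek_Cre (-0.16 ± 0.04, adjusted p = 0.00148).

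Klf6, a relative that responds to stress and is also a FOXO target, had a like course, at 688 ± 5.08, 440 ± 7.81 and 420 ± 5.79 CPM in No_Cre, Tek_Cre and Prx1_Cre. Of 14 KLF genes tested besides Klf2, 4 rose and 7 fell in Prx1_Cre against No_Cre (median -0.26) and 4 rose and 7 fell in Tek_Cre (median -0.15). The erythroid factor Klf1 was 8.83-fold higher in Prx1_Cre and 2.91-fold lower in Tek_Cre, Klf5 was 3.34-fold higher in Prx1_Cre, and Klf4 fell in both, from 9.93 ± 1.37 CPM to 4.14 ± 0.517 in Prx1_Cre and 3.98 ± 0.763 in Tek_Cre. Klf8 fell 1.67-fold in Tek_Cre and 1.58-fold in Prx1_Cre, and Klf11 was 2.03-fold lower in Prx1_Cre than in Tek_Cre. Klf15 had 132 counts in Tek_Cre and 0 in each of the other groups. Of 9 tested genes known as KLF2 targets, 2 rose and 4 fell in Prx1_Cre and 3 rose and 3 fell in Tek_Cre. S1pr1, the best known of them, fell in Prx1_Cre as given above and changed by -0.08 ± 0.07 in Tek_Cre (edgeR adjusted p = 0.327), where Klf2 itself was lower. The anticoagulant receptor Thbd rose 1.63-fold in Tek_Cre to 18.5 ± 2.16 CPM, and the integrin subunit Itgb7 rose 1.27-fold to 156 ± 11.7 CPM. The chemokine receptor Ccr7 had 91 counts in No_Cre, 19 in Tek_Cre, with 1 in Prx1_Cre.

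**Figure D4:**
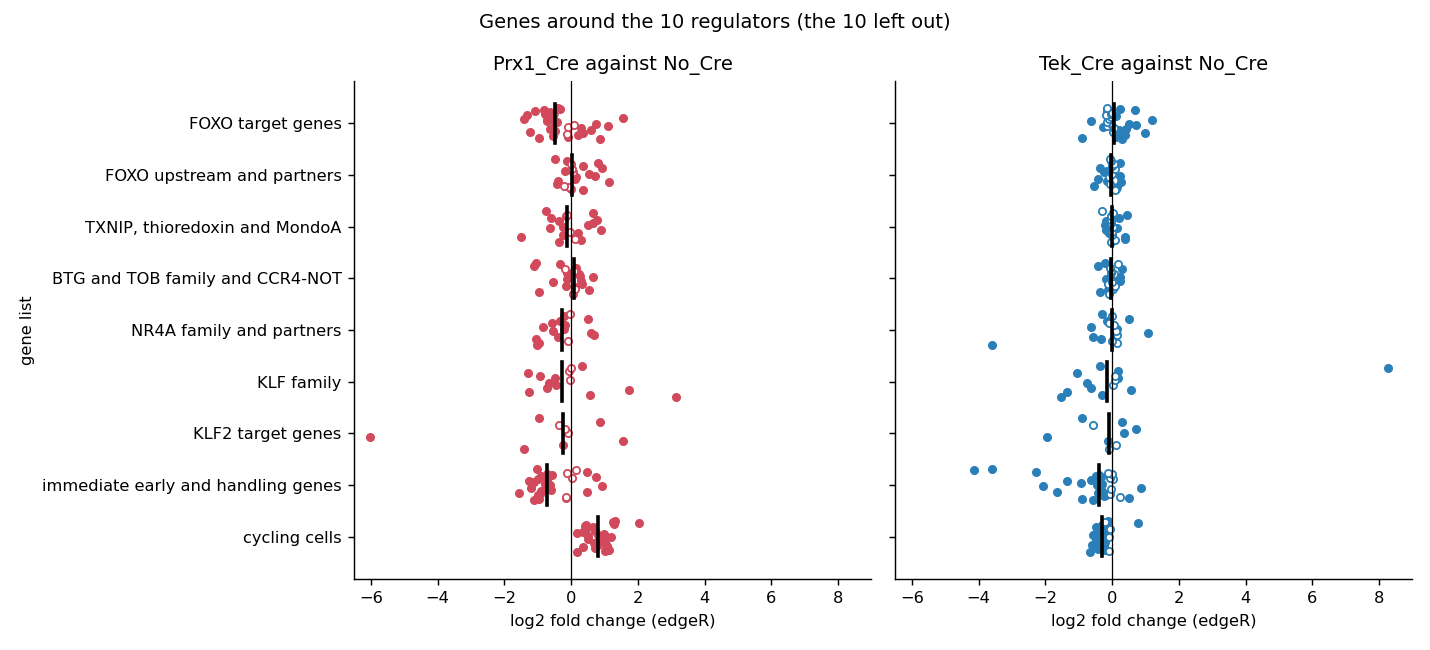
Log2 fold change (horizontal axis, edgeR) of each tested gene of 9 lists in Prx1_Cre against No_Cre (left) and Tek_Cre against No_Cre (right), without the 10 regulators, filled where the adjusted p was under 0.05, with the list median as a black bar. FOXO targets have a median of -0.49 at left and 0.04 at right, cycling genes 0.80 and -0.30, and Klf15, with 0 counts in No_Cre, lies farthest right at a value that depends on the prior count of the fit.

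In level per kilobase of exon, Klf2 was highest in No_Cre (406 ± 22.3 CPM per kilobase) and in Prx1_Cre (224 ± 9.90), while Txnip was highest in Tek_Cre (281 ± 3.68, with Klf2 at 250 ± 8.16). Txnip, Btg2 and Nr4a1 followed Klf2 in No_Cre at 230 ± 3.53, 98.1 ± 1.42 and 76.0 ± 2.36 CPM per kilobase. In Prx1_Cre Nr4a1 (66.4 ± 5.60) stood above Btg2 (50.8 ± 1.46). Tob1 and Btg1 came next in every group, at 11.8 ± 0.575 and 10.4 ± 0.245 CPM per kilobase in No_Cre, and were the only neighbours in the order whose libraries overlapped, in Prx1_Cre (10.1 ± 0.405 and 9.55 ± 0.448). Foxo1, Nr4a2, Foxo3 and Foxo4 closed the order in No_Cre, at 3.64 ± 0.123, 2.87 ± 0.103, 1.88 ± 0.0298 and 0.219 ± 0.0307. In Prx1_Cre Foxo3 (1.99 ± 0.0879) led this low group, ahead of Foxo1 (1.62 ± 0.0793) and Nr4a2 (1.32 ± 0.0854).

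The likeness of profiles was measured as the root-mean-square difference of log2 CPM over the 12 libraries, each gene centred on its own mean, among 10042 other protein-coding genes above a mean level of 5 CPM (10043 for Foxo4). For Txnip the nearest were the lipid transporter gene Atp8b5 (0.0603), the receptor Gpr171 (0.0691) and the interferon-induced Gbp2 (0.0732). Nr4a1 was nearest to the ribosome assembly factor Mdn1 (0.0711), and Foxo3 to Hdhd2 (0.0800), Pik3r1 (0.0801) and Phtf1 (0.0810). Next to Nr4a1 came Tanc1 (0.0988) and 4930402H24Rik (0.129). Foxo1 was nearest to Abhd15 (0.0579), Dyrk1b (0.0706) and Mfsd6 (0.0751), and Nr4a2 to Snx24 (0.0814), Gprasp2 (0.0901) and Srd5a1 (0.0919). For sparse Foxo4 the nearest genes were farther off, Hsf2bp (0.276), Cnrip1 (0.286) and Pygm (0.298). Btg2 was nearest to the adaptor Dok2 (0.0491) and the TGF-beta mediator Smad4 (0.0522), followed by Hacl1 (0.0523), and Klf2 to the centrosomal gene Pcnt (0.0654) and the sialomucin Podxl (0.0708), followed by Phlpp1 (0.0712). The nearly flat Btg1 was nearest to Son (0.0464), Txndc15 (0.0528) and Sap30 (0.0530), and Tob1 to genes that included Psme1 (0.0422) and Tmem50a (0.0428). Among the 9 regulators other than the sparse Foxo4, the closest pairs were Btg1 with Tob1 (0.127), Foxo1 with Nr4a2 (0.133) and Txnip with Nr4a2 (0.138), and the farthest were Txnip and Nr4a1 (1.05). Distances are small where both genes are nearly flat, and 3 groups set most of each profile.

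Markers of other states and cells also differed between the groups, in several different orders. All 30 tested cycling genes rose in Prx1_Cre against No_Cre (median 0.80), and 25 of 30 fell and 1 rose in Tek_Cre (median -0.30). Ccne1, Cdc6 and Rrm2, which act at DNA replication, rose 4.14-fold, 2.49-fold and 2.44-fold in Prx1_Cre, and the mitotic genes Ccnb1 and Cenpe were 2.78-fold and 2.73-fold higher there than in Tek_Cre. In Tek_Cre against No_Cre Mki67 and Aurka fell 1.58-fold and 1.53-fold while Ccne1 rose 1.70-fold. The summed level of the list was 5228 to 5293 CPM in No_Cre, 4299 to 4395 in Tek_Cre, with 8366 to 8606 in Prx1_Cre. The LTHSC markers given above moved the other way, with 12 of 14 lower in Prx1_Cre and 9 higher in Tek_Cre. Plasma cell markers (10 of 10 lower in Prx1_Cre, 10 of 10 higher in Tek_Cre) summed to 829 to 852 CPM in No_Cre, 2709 to 2753 in Tek_Cre, with 291 to 294 in Prx1_Cre, where Irf4 and Tnfrsf17 had 0 counts. B cell markers (8 of 8 tested lower in Prx1_Cre, 5 higher and 3 lower in Tek_Cre) summed to 104 to 109, 209 to 219 and 29.6 to 33.7 CPM. The defining B cell factor Pax5 had 0 counts in both Cre groups and Blk 0 in Prx1_Cre. Erythroid markers (12 of 12 higher in Prx1_Cre, 9 lower in Tek_Cre) summed to 1629 to 1673 CPM in No_Cre, 1173 to 1209 in Tek_Cre, with 6037 to 6089 in Prx1_Cre. The most abundant list, that of neutrophil genes, summed to 28618 to 28939 CPM in No_Cre, 36253 to 36771 in Tek_Cre, with 49829 to 51984 in Prx1_Cre. Of its 12 genes, 10 rose and 1 fell in Prx1_Cre against No_Cre, and 7 rose and 4 fell in Tek_Cre against No_Cre. Megakaryocyte markers, of which 9 of 10 fell in Prx1_Cre, summed to 1961 to 2033, 1944 to 2152 and 1228 to 1427 CPM in the same order of groups. Mast cell, basophil and eosinophil markers (8 of 11 lower and 1 higher in Prx1_Cre, 4 lower and 5 higher in Tek_Cre) summed to 2931 to 2971, 2849 to 2959 and 1193 to 1235 CPM. The overlapping sums of No_Cre and Tek_Cre covered opposite changes in Tek_Cre against No_Cre. Prg2 fell from 1110 ± 22.6 to 16.0 ± 1.84 CPM and Epx from 414 ± 9.24 to 2.96 ± 0.710, while Tpsb2 rose from 842 ± 13.6 to 1952 ± 72.3. Multipotent progenitor markers (5 of 7 lower and 1 higher in Prx1_Cre) summed to 719.7 to 738, 529 to 554 and 411 to 442 CPM. Endothelial markers (5 of 9 tested lower and 3 higher in Prx1_Cre) summed to 451 to 459.7, 417 to 452 and 224 to 243 CPM, with Cdh5 and Ptprb at 0 counts in Tek_Cre. The 3 that rose in Prx1_Cre against No_Cre were low, Kdr from 2.05 to 4.59 CPM, Flt1 from 0.757 to 2.25 and Ptprb from 0.0115 to 0.940. T and NK cell markers summed to 398 to 409.8, 207 to 225 and 267 to 276 CPM, with Cd3e at 0 counts in No_Cre and Prx1_Cre and Cd8a at 0 in both Cre groups. Monocyte and dendritic cell markers summed to 108 to 114, 97.1 to 109.7 and 76.3 to 79.4 CPM, and stroma markers to 76.7 to 81.4, 58.4 to 70.9 and 44.6 to 47.5 CPM, with Prrx1 at 0 counts in all groups. Some sums rested mostly on 1 gene. Of the stroma markers 3 of 10 were tested, with Pdgfrb alone at 73.7 ± 1.67, 58.6 ± 6.45 and 41.5 ± 1.63 CPM. Of the T and NK cell markers 6 of 12 were tested, with Nkg7 at 369 ± 5.53, 183 ± 6.19 and 255 ± 4.19 CPM. Xbp1 stood at 255 ± 3.26 CPM in Prx1_Cre, most of the plasma cell sum there. The part of these cells and of the cell cycle in the changes of the 10 genes was not tested. Leaving the 429 immunoglobulin genes out of the fit changed no direction and no call among the 10.

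Immediate early and handling genes mostly fell in each Cre group, 21 of 30 tested in Prx1_Cre against No_Cre (4 rose, median -0.73) and 21 of 30 in Tek_Cre against No_Cre (2 rose, median -0.39). Their summed level was 22116 to 24127 CPM in No_Cre, 17092 to 18295 in Tek_Cre, with 11640 to 12753 in Prx1_Cre, the same steps as Btg2. Egr1 fell 2.96-fold in Prx1_Cre, to 564 ± 7.57 CPM. Beside Nr4a1, which was lowest in Tek_Cre, the stress genes Atf3 and Hspa1a were lowest there too. Atf3 stood at 4.34 ± 0.186 CPM in Tek_Cre, against 18.2 ± 1.38 in No_Cre and 34.3 ± 1.88 in Prx1_Cre, and Hspa1a at 1.62 ± 0.267, 7.92 ± 0.728 and 11.1 ± 0.666 CPM in the same order. Hspa1b, near identical in sequence to Hspa1a so that reads may be split between them, stood at 0.566 ± 0.173 CPM in Tek_Cre and 10.1 ± 1.07 in No_Cre. Whether handling time differed between groups is not given in the sources used here, and its part was not tested.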

How the data were processed

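The authors deposited 1 table of raw counts per Ensembl gene with 12 columns, 1 per library, all used. Per the labels' protocols, cells were sorted by flow cytometry, and total RNA was made into libraries with the SMARTer Ultra Low Input and Nextera XT kits. Per the submitters' processing notes, the tools named are HTSeq 0.9.1, STAR 2.5.3a, DESeq2 1.18.1 and Trim Galore 0.4.4, with build GRCm38 and without a stated order. The annotation release, strand setting and filters are not given in the sources used here. Of 48795 identifiers, 48349 were given a symbol, ignoring the version. Coordinates and exon lengths are from GENCODE M21 (GRCm38), and promoters from RefSeq (GRCm38.p6).

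The main test was that of edgeR 4.0.16 under R 4.3.3 (robust quasi-likelihood test, TMM factors, filterByExpr, group as the only term, 12 libraries in 1 fit), with Benjamini-Hochberg adjustment over 14756 genes. SE is the log2 fold change divided by the root of F. CPM uses library totals times TMM factors. Alternatives were DESeq2 1.42.0, RLE and upper-quartile factors, 2 filters, the 8 libraries compared, no immunoglobulin genes, a replicate block and each library left out. Counts come from reads without molecular identifiers. The 10 genes, the lists and the tests were chosen with earlier results of these data known. The named genes were, per list and comparison, the up to 3 largest called changes whose mean reached 5 CPM, together with the 3 nearest profiles of each regulator. A few genes that the rule selects are not reported here. Kit and Slamf1 (fixed markers) and Foxo6 were added to it, and Pik3ip1, Cdkn1b, Sesn1, Sesn3, Slc2a1, Mlxip, Cnot7, Cnot8, Nr4a3, Klf6, Klf15 and Ccr7 were named after their values were seen. The same holds for Mlx, Kdr, Flt1, Ptprb, Tpsb2, Sesn2, Pdgfrb, Nkg7, Xbp1 and the CCR4-NOT genes other than Cnot7 and Cnot8. Plots were drawn with matplotlib 3.10.9.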

Additional observations from a re-analysis of the deposited data

How the results depend on the processing

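Of 597 values of a regulator under an alternative, 580 kept both direction and side of the threshold, 7 lost the call, 1 gained it and 9 turned. The turned values were all of changes not called. Foxo3 in Prx1_Cre against No_Cre was -0.01 with upper-quartile factors. Tob1 in Tek_Cre against No_Cre was -0.0012 with upper-quartile factors, -0.0062 without the filter, -0.011 without No_Cre replicate 2, -0.0027 without Tek_Cre replicate 3 and -0.0050 without Tek_Cre replicate 4, over a range of -0.011 to 0.040 with 1 library left out. Btg1 in Prx1_Cre against Tek_Cre was 0.0087 without the filter, 0.016 without Tek_Cre replicate 1 and 0.0041 without Prx1_Cre replicate 4, over a range of -0.057 to 0.016 with 1 library left out. The calls that moved were those of Btg1 and Nr4a2 given in the report, so the 2 regulators that rose in Tek_Cre became 1 without the filter. With each library left out in turn the number that rose in Tek_Cre was 1 to 2 and the number that fell in Prx1_Cre against No_Cre 8 to 9. Over the whole table, 5283 to 5523 genes rose and 5654 to 5962 fell in Prx1_Cre against No_Cre, 3594 to 4252 rose and 3671 to 4444 fell in Tek_Cre against No_Cre, and 5492 to 5750 rose and 5770 to 6038 fell in Prx1_Cre against Tek_Cre. DESeq2 made the same number of calls among the 10 in each comparison (9, 6 and 9). Upper-quartile factors shifted the median of all genes by -0.0952 in Prx1_Cre against No_Cre. Leaving immunoglobulin genes out raised the level of the regulators in CPM in all groups (Txnip to 819, 993 and 320 CPM in No_Cre, Tek_Cre and Prx1_Cre). Stricter filtering left Foxo4 out of the fit. Whether replicate numbers pair the samples was not settled by these values. Correlations of same-numbered deviations ran from -0.106 to 0.537, and were over 0.1 in all 3 pairs of groups for replicate 4 alone. Of 12 libraries, 3 correlated best with their own number in both other groups. With the replicate block, 5532 genes rose in Prx1_Cre against No_Cre, above the range of 5283 to 5523, which does not include it, and 5886 fell. The calls among the 10 genes with this block were 9, 6 and 9. Depth limited Foxo4 and Nr4a3.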

Other observations

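The highest Klf2, Nr4a1 and Tob1 values of each group were all in replicate 4, and the highest Txnip value of each group was in replicate 2. For Klf2 these were 806 CPM in No_Cre, 483 CPM in Tek_Cre and 438 CPM in Prx1_Cre. The labels do not say what a replicate number stands for.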
